A study of Mus musculus with 12 samples.

Results

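The interleukin-6 and interleukin-12 families are groups of related secreted cytokines, and 6 genes that encode their subunits were followed here in mouse macrophages given apolipoprotein A-I (apoA-I): Il6, Il12a, Il12b, Il23a, Il27 and Ebi3. They were chosen by name, as every probe on the array that carries the symbol of one of these genes, out of 27666 named genes, and each had 1 probe of 41174. Peritoneal macrophages were drawn out with thioglycolate, a sterile irritant, from female mice aged 10 weeks and were collected 96 h later. All cells were loaded overnight with cholesterol at 10 µg/ml and then kept with polymyxin B at 25 µg/ml, which captures bacterial lipopolysaccharide. The 4 groups of 3 arrays each were MyD88-null cells with apoA-I at 10 µg/ml for 2 h, MyD88-null control cells without it, C57BL/6 cells with apoA-I at the same dose and time, and C57BL/6 control cells. MyD88 is an adaptor protein used by the interleukin-1 receptor and by most Toll-like receptors. The C57BL/6 mice carry it, and the labels name a null mouse and no Cre driver, so the loss was taken as not limited to macrophages. The labels do not say how the null allele was made or backcrossed. A difference in strain background therefore cannot be told apart from the loss of MyD88. The question was which subunits need MyD88 to respond to apoA-I, the chief protein of high-density lipoprotein particles. The labels tie no sample to an animal or pool, so the p-values reflect only how these samples spread, possibly for technical reasons, and the number of arrays limits the precision.

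Interleukin-6 acts alone, as a single chain that signals through its receptor and the shared chain gp130. The interleukin-12 family is built from pairs. The p40 chain from Il12b joins the p35 chain from Il12a to make interleukin-12 and the p19 chain from Il23a to make interleukin-23, while the p28 chain from Il27 joins Ebi3 to make interleukin-27, and Ebi3 with p35 makes interleukin-35. Activated macrophages and dendritic cells are known sources of interleukin-6, interleukin-12, interleukin-23 and interleukin-27. Interleukin-12 drives type 1 helper T cells, and interleukin-23 maintains those that make interleukin-17. In mouse macrophages Il6 and Il12b are known targets of NF-kappaB, the transcription factor that Toll-like receptors activate.

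Upstream sequences are shown for Il6 and Il12b, whose levels separated the groups most widely, and for Ebi3, which was above background in all 4 groups, so that the region before each gene's start can be set beside its behaviour. A RefSeq window from 250 bases before the start to 50 after it was at hand for 4 of the 6 members, with 2 windows for Il12a. The windows are on the plus strand of build GRCm38.p6, and the 250 bases before the start are printed from 5′ to 3′, at chr5:30012864-30013113 for Il6, chr11:44399813-44400062 for Il12b and chr17:55952373-55952622 for Ebi3. Capitals mark letters that match 1 of 5 motifs searched on both strands: NF-kappaB as GGG, any 5 bases and CC, C/EBP as TTNNGNAA, AP-1 as TGANTCA, the interferon-stimulated response element as GAAA, any 2 bases and GAAA, and the TATA box as TATAAA.
Il6: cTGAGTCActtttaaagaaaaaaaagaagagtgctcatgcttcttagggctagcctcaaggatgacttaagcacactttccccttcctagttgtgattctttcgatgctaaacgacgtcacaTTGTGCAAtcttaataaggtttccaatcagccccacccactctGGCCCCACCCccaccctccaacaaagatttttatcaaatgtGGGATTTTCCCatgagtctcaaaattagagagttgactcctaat
Il12b: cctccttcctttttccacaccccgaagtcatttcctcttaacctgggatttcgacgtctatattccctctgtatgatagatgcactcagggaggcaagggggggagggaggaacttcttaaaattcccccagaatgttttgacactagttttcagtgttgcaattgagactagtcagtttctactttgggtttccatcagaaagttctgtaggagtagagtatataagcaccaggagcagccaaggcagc
Ebi3: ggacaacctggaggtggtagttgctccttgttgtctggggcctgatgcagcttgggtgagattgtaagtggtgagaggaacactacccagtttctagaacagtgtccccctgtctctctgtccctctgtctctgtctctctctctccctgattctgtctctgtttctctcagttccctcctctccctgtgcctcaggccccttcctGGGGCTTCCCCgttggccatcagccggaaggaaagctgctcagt
The Il6 window held an NF-kappaB match from base -44 to base -35 before the start, with another on the opposite strand 1 base on, and a further match from -85 to -76. It also held a C/EBP match from -128 to -121 and an AP-1 match from -249 to -243. None of the 5 letter patterns occurred in the Il12b window. This does not show that such sites are absent there, since sites that depart from these letters were not searched for. The Ebi3 window held overlapping NF-kappaB matches between -44 and -34, and further ones after the start, from base 15 to 24 and from base 36 to 45. Of the Il12a windows, the first held none and the second held NF-kappaB matches between -113 and -103 and from base 18 to 27. Among 32851 RefSeq windows of this length 50.8% held the NF-kappaB pattern, 40.7% the C/EBP pattern, 7.81% the AP-1 pattern, 3.44% the interferon element and 13.6% the TATA pattern, so a match is a description of the letters and not of a site in use.

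The signal of a probe was read as log2 of its processed intensity minus that array's 75th percentile, and this quantity is called the level. A level serves to compare arrays for 1 gene and not 1 gene with another. Across the 12 arrays the 75th percentile of intensity ran between 209.8 and 1489, between 57.6% and 73.6% of probes were well above background, and replicate arrays correlated at 0.915 to 0.979 across genes. All 7 macrophage markers listed, among them Adgre1 and Csf1r, were above background on every array, and none of them passed the test in any comparison (with the replicate number as a block, Cd14 passed in C57BL/6 cells). The descriptions of MyD88-null apoA-I replicate 2 and C57BL/6 control replicate 2 contradict their titles on whether apoA-I was added, and the titles were followed. With the treatment read from the descriptions 0 of all 16742 genes, and so 0 members, passed in limma in either response. Between genotypes with apoA-I 1 gene passed, and it was not a member. In the C57BL/6 response Il6, Il12b and Il23a had an unadjusted p under 0.05 in limma. No member did in the MyD88-null response or between genotypes with apoA-I. Without both samples 3 members passed in the MyD88-null response, 3 in the C57BL/6 response, where Il12a did not (adjusted p = 0.269), and 2 between genotypes with apoA-I. The single Myd88 probe read 2.68, 3.16 and 2.32 in apoA-I-treated MyD88-null cells and 1.83, 2.03 and 1.34 in MyD88-null controls, against 4.10, 4.19 and 3.29 in apoA-I-treated C57BL/6 cells and 3.42, 3.40 and 2.88 in C57BL/6 controls. It was lower in the null cells by log2 differences of -1.14 with apoA-I (SE 0.325, limma's adjusted p = 0.944, or 0.0270 with the replicate number as a block) and -1.50 in controls (SE 0.325, adjusted p = 0.248, or 0.00431 with the block), and the array files do not show whether the probe lies in the part that was deleted.

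**Figure D1:**
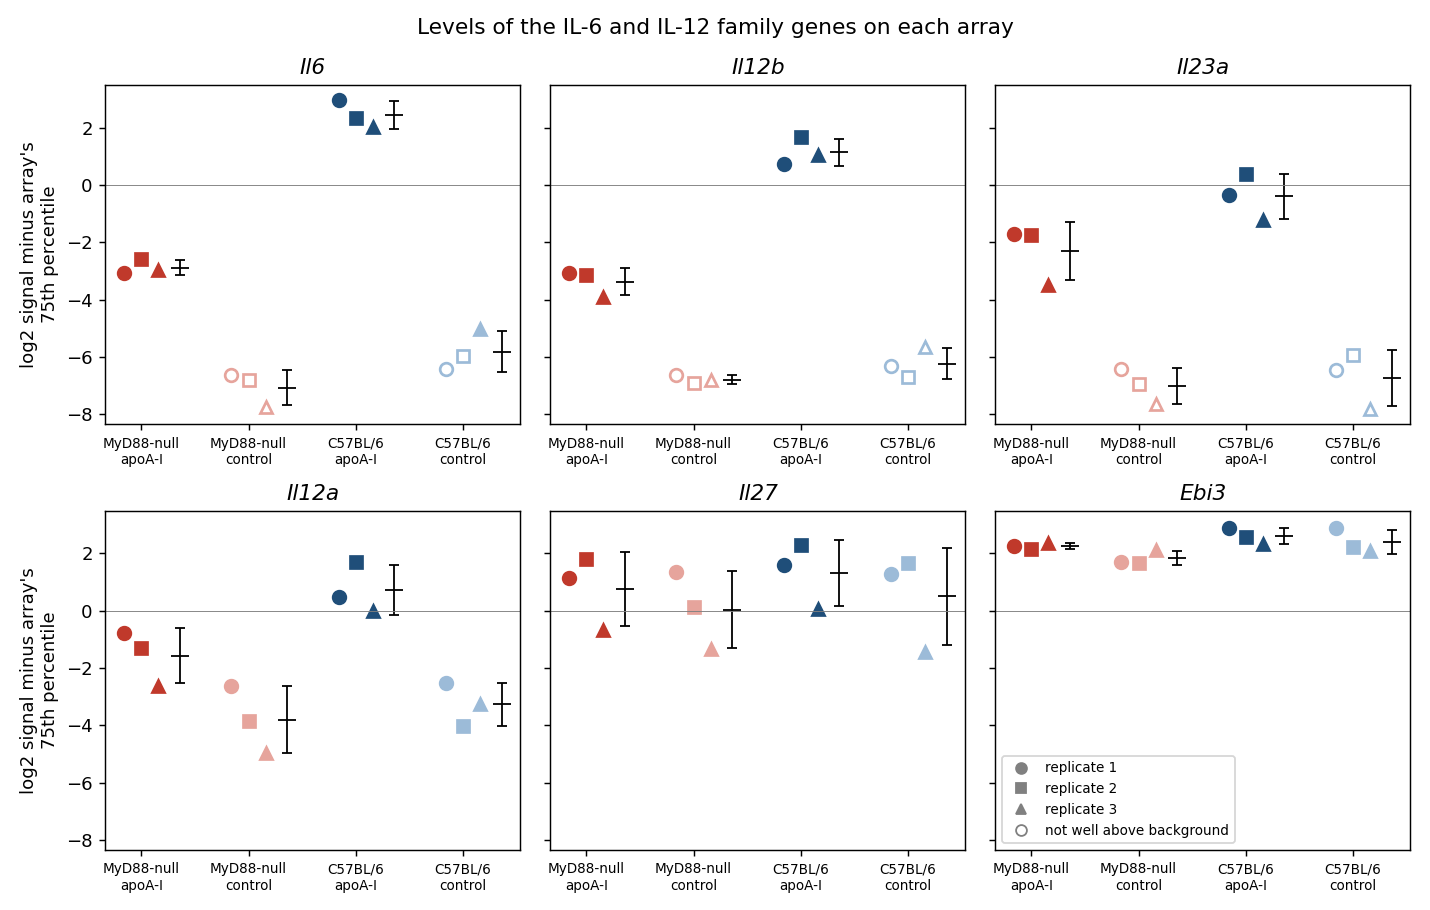
Level of each member on each of the 12 arrays (y axis, log2 signal minus the array's 75th percentile), with points shaped by replicate number, open where the probe was not well above background, and bars for the mean and SD of 3 arrays. Il6, Il12b and Il23a sat near background in both control groups and above it in both groups with apoA-I, and Ebi3 lay between 1.66 and 2.89 on all arrays.

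Il6 was the member with the widest range of levels. Its probe lies at chr5:29052734-29052793 on the plus strand of build mm7 and was printed 10 times on each array (exon annotation of mm7 was not used here). In MyD88-null cells with apoA-I it read -3.08, -2.59 and -2.98 and in MyD88-null controls -6.62, -6.82 and -7.75, against 2.95, 2.35 and 2.01 in apoA-I-treated C57BL/6 cells and -6.42, -5.97 and -5.03 in C57BL/6 controls. The order was therefore C57BL/6 with apoA-I, then MyD88-null with apoA-I, then both control groups, and no array of a group with apoA-I overlapped one of a control group or of the other genotype with apoA-I. The SD of log2 intensity over the printed copies within an array was at most 0.558, on a dim control array. On no MyD88-null control array and 1 of 3 C57BL/6 control arrays was the probe well above background.

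Il12b encodes p40, the chain common to interleukin-12 and interleukin-23, and its probe lies at chr11:44370372-44370431 on the plus strand of mm7, also printed 10 times. The levels were -3.06, -3.14 and -3.92 in apoA-I-treated MyD88-null cells and -6.63, -6.92 and -6.81 in MyD88-null controls, against 0.72, 1.66 and 1.04 in apoA-I-treated C57BL/6 cells and -6.31, -6.71 and -5.66 in C57BL/6 controls. The groups with apoA-I again stood apart from each other and from the controls, while the control groups overlapped and held no array with the probe well above background.

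Il23a encodes p19, the chain particular to interleukin-23 (chr10:127798207-127798266, minus strand). It read -1.70, -1.76 and -3.48 in apoA-I-treated MyD88-null cells and -6.43, -6.94 and -7.66 in MyD88-null controls, against -0.36, 0.38 and -1.21 in apoA-I-treated C57BL/6 cells and -6.45, -5.93 and -7.80 in C57BL/6 controls. The groups with apoA-I did not overlap each other, and the control groups, all below background, did.

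Il12a encodes p35, the chain of interleukin-12 that also pairs with Ebi3 (chr3:68795192-68795251, plus strand). It was above background on all 12 arrays, at -0.77, -1.30 and -2.63 in apoA-I-treated MyD88-null cells and -2.62, -3.83 and -4.96 in MyD88-null controls, against 0.47, 1.68 and -0.0042 in apoA-I-treated C57BL/6 cells and -2.53, -4.03 and -3.24 in C57BL/6 controls. The lowest MyD88-null array with apoA-I just reached the highest MyD88-null control, whereas the C57BL/6 groups were well apart.

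The chains of interleukin-27 were above background on all 12 arrays. Il27, which encodes p28 (chr7:122689181-122689240, minus strand), read 1.13, 1.80 and -0.68 in apoA-I-treated MyD88-null cells and 1.35, 0.12 and -1.35 in MyD88-null controls, against 1.60, 2.30 and 0.05 in apoA-I-treated C57BL/6 cells and 1.27, 1.65 and -1.43 in C57BL/6 controls. All 4 groups overlapped, and in each of them the array numbered 3 was the lowest. The same held for Il23a in all 4 groups and for Il12a in all but the C57BL/6 controls. Scan day 3 held the 4 arrays numbered 3 alone, with a later version of the Agilent Feature Extraction software. The part of this in the results of these members was not tested. Ebi3 (chr17:54116438-54116497, plus strand) read 2.27, 2.13 and 2.36 in apoA-I-treated MyD88-null cells and 1.71, 1.66 and 2.12 in MyD88-null controls, against 2.89, 2.57 and 2.33 in apoA-I-treated C57BL/6 cells and 2.88, 2.22 and 2.07 in C57BL/6 controls. The MyD88-null groups lay just apart and the C57BL/6 groups overlapped.

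ApoA-I raised 3 of the 6 members in MyD88-null macrophages, those for interleukin-6 and for both chains of interleukin-23. Genes were compared with limma in 1 model of all 12 arrays, with p-values adjusted over 16742 genes by the Benjamini-Hochberg method at a threshold of 0.05. In this comparison 1.08% of all genes passed as higher with apoA-I. Il23a rose by 4.70 (SE 0.641, at least 6.40-fold, adjusted p = 0.00465), Il6 by 4.18 (SE 0.418, at least 4.31-fold, adjusted p = 0.000625) and Il12b by 3.41 (SE 0.347, at least 3.07-fold, adjusted p = 0.00066). All 3 sat below background on each MyD88-null control array, so the folds are bounds: the mean with apoA-I was set against, on each control array, the higher of the probe's own level and the lowest level at which any probe was well above background. These calls rest on dim controls: with normexp background correction, which adds 50 to every signal, the changes were 1.70, 1.46 and 1.11 for Il23a, Il6 and Il12b, with adjusted p-values of 0.600, 0.326 and 0.819. Il12a gave a log2 change of 2.24 (SE 0.704, 4.71-fold, adjusted p = 0.293), which passed with slide as a random block (2.36, adjusted p = 0.0314), a fit in which 3.02% of all genes passed as higher. With the replicate number as a block Il12a did not pass (adjusted p = 0.0601). Il27 gave 0.71 (SE 1.01, interval -1.54 to 2.96) and Ebi3 0.43 (SE 0.256, interval -0.14 to 1.00).

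Between arrays of the same number the MyD88-null response was 3.54, 4.23 and 4.77 for Il6, 3.57, 3.77 and 2.89 for Il12b, 4.73, 5.18 and 4.18 for Il23a, and 1.84, 2.53 and 2.33 for Il12a. For Il27 it was -0.23, 1.68 and 0.67, and for Ebi3 0.56, 0.48 and 0.24. The groups did not overlap for Il6, Il12b, Il23a and Ebi3, beside 5.78% of all genes in the higher direction. The median over the 6 members was 2.83, or 1.86 with 3 members at their bounds, beside 0.02 over all genes.

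In C57BL/6 macrophages apoA-I raised 4 of the 6 members, those for interleukin-6 and for the 3 chains of interleukin-12 and interleukin-23. Here 0.788% of all genes passed as higher with apoA-I. Il6 rose by 8.24 on the log2 scale (SE 0.418, adjusted p = 8.47e-06), or at least 148-fold with the dim control arrays at that lowest level, since the probe was above background on 1 of the 3 C57BL/6 control arrays. Il12b rose by 7.37 (SE 0.347, adjusted p = 5.45e-06), or at least 68.6-fold, its controls being below background. Il23a rose by 6.33 (SE 0.641, at least 23.6-fold, adjusted p = 0.00116). Il12a rose by 3.98 (SE 0.704, 15.8-fold, adjusted p = 0.0327), the call nearest the threshold. Leaving out 1 array at a time, the adjusted p of Il12a ran from 0.0229 to 0.176 and missed the threshold in 7 of 12 fits, with log2 changes of 3.50 to 4.35. Without MyD88-null apoA-I replicate 2 or MyD88-null control replicate 2 it was 0.0573 and 0.0608, without C57BL/6 apoA-I replicate 1 or 2 it was 0.101 and 0.173, and without C57BL/6 control replicate 1, 2 or 3 it was 0.0569, 0.176 and 0.128. It was 0.115 without the 4 arrays numbered 3, 0.0688 with no filter on dim probes and 0.0665 in a fit of only the groups compared. With normexp background correction Il6 and Il12b passed, while Il23a gave 2.85 (adjusted p = 0.0903) and Il12a 2.93 (adjusted p = 0.0531).

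Neither chain of interleukin-27 passed the test in C57BL/6 cells. Il27 gave a log2 change of 0.82 (SE 1.01, 95% confidence interval -1.43 to 3.07), an interval that holds both a decrease and an increase. Ebi3 gave 0.21 (SE 0.256, interval -0.36 to 0.78). By replicate number, the change was 9.37, 8.32 and 7.04 for Il6, 7.04, 8.37 and 6.70 for Il12b, 6.08, 6.30 and 6.59 for Il23a and 3.00, 5.71 and 3.23 for Il12a, positive in each of the 3 pairs. That sign does not set these members apart. It was also positive in each pair for Il27 (0.34, 0.65 and 1.48) and Ebi3 (0.016, 0.35 and 0.26), and the share of all genes was not counted. The groups did not overlap for 4 of the 6 members, and the same held, in the higher direction, for 6.27% of all genes. The median log2 change was 5.15 over the 6 members, or 4.27 with Il12b and Il23a at their bounds, beside -0.02 over all genes. On the arrays that shared a slide, the change in MyD88-null cells was 3.73 and 4.77 for Il6 and 3.86 and 2.89 for Il12b, and in C57BL/6 cells it was 8.32 and 9.37 for Il6 and 8.37 and 7.04 for Il12b.

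**Figure D2:**
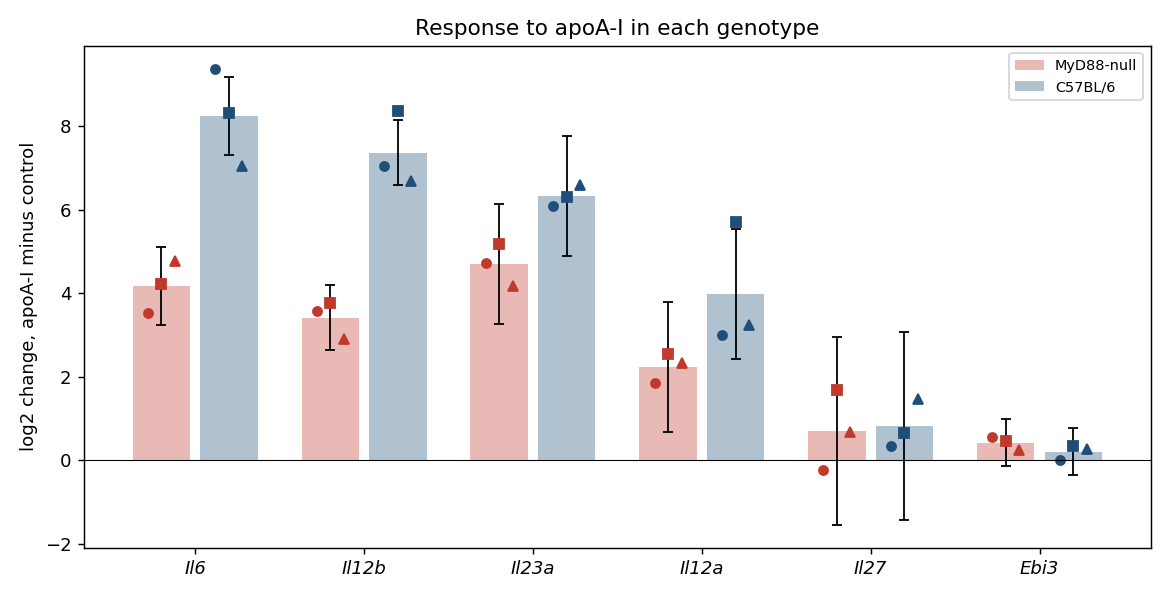
Log2 change with apoA-I over control (y axis) for each member in MyD88-null (red) and C57BL/6 (blue) cells. Bars are the fitted changes with 95% confidence intervals, and points are differences between arrays of the same replicate number. The MyD88-null bar is the lower one for every member but Ebi3.

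With apoA-I present, Il6 and Il12b were far lower in MyD88-null than in C57BL/6 cells. Of all genes, 0.0478% passed as lower in this comparison, which is 8 genes, and Il6 and Il12b were 2 of them and had the lowest log2 differences of the 16742. Il6 differed by -5.32 (SE 0.418, 39.9-fold lower, adjusted p = 0.000814), so that MyD88-null cells held 2.50% of the C57BL/6 signal (95% confidence interval 1.31% to 4.77%). Il12b differed by -4.51 (SE 0.347, 22.8-fold lower, adjusted p = 0.000814), to 4.38% of the C57BL/6 signal (interval 2.57% to 7.48%). Without the 4 arrays numbered 3 the adjusted p of Il12b was 0.0682. Within slides that held both genotypes with apoA-I, the difference was -4.94 and -4.99 for Il6 and -4.80 and -4.95 for Il12b.

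The chains that complete interleukin-12 and interleukin-23 did not pass in the model without a block. Il12a differed by -2.28 (SE 0.704, adjusted p = 0.991, or 0.175 with the replicate number as a block), a MyD88-null signal of 20.6% of the C57BL/6 one (interval 6.95% to 60.9%). Il23a differed by -1.91 (SE 0.641, adjusted p = 0.999), or 26.5% (interval 9.88% to 71.3%), and passed with the replicate number as a block (SE 0.267, adjusted p = 0.0412), a fit in which 0.179% of all genes passed as lower. Both were lower in each pair of one number, by log2 differences of -1.24, -2.98 and -2.62 for Il12a and -1.33, -2.14 and -2.27 for Il23a. Il27 was also lower in each pair (-0.47, -0.50 and -0.73), and Ebi3 in all but the pair numbered 3 (-0.62, -0.43 and 0.024). The 2 genotypes did not overlap for Il6, Il12a, Il12b and Il23a, which is 4 of the 6 members, beside 2.43% of all genes in the lower direction. For the interleukin-27 chains the MyD88-null signal was 67.4% for Il27 (interval 14.2% to 321%) and 78.9% for Ebi3 (interval 53.1% to 117%), with adjusted p = 0.999 for each.

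**Figure D3:**
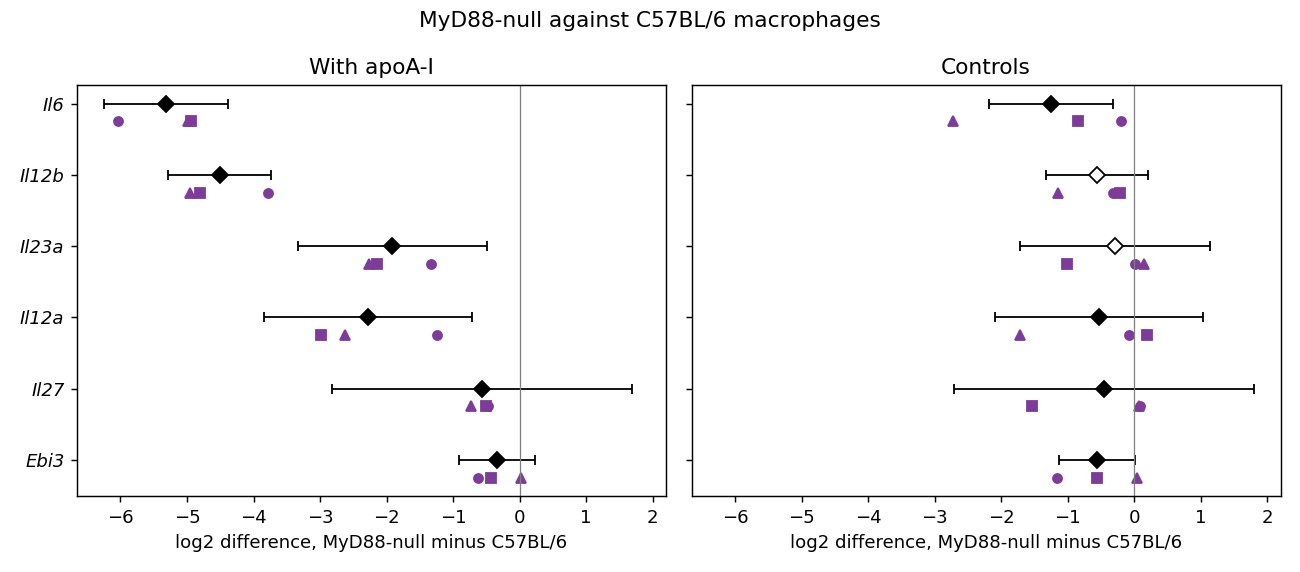
Log2 difference of MyD88-null minus C57BL/6 cells (x axis) with apoA-I (left) and in controls (right). Diamonds are fitted differences with 95% confidence intervals, open where both groups were below background, and purple points are pairs of arrays of one replicate number. With apoA-I the intervals of Il6 and Il12b lie below -3.5, and in controls the differences of these members are nearer 0.

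In control cells no member passed as higher or lower between the genotypes, where 0.0776% of all genes passed, 0.0597% as lower, and 586 genes had an unadjusted p under 0.05 in limma. The level of Il6 differed by -1.25 (SE 0.418, adjusted p = 0.999) at signals at or near background, the only member with an unadjusted p under 0.05 in limma, and all 3 pairs were negative, at -0.20, -0.84 and -2.72. Il12b and Il23a were below background in both control groups, so no fold is given for them. The pairs of Il12b were also all negative, at -0.32, -0.21 and -1.15. Among the members above background in every control array, Il12a differed by -0.53 (SE 0.704), Il27 by -0.46 (SE 1.01) and Ebi3 by -0.56 (SE 0.256, adjusted p = 0.999).

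Whether the response itself was smaller without MyD88 was tested as the difference of the responses, MyD88-null minus C57BL/6. Here 0% of genes passed, and 186 of 16742 had an unadjusted p under 0.05 in limma. Il12b had the smallest p of all genes (difference -3.95, SE 0.490, adjusted p = 0.170) and Il6 the next (-4.06, SE 0.591, adjusted p = 0.334), and their differences were the lowest of all genes. With slide as a random block 2 genes passed, 0.0119% of those tested, and they were Il12b (-4.24) and Il6 (-4.39), each with adjusted p = 0.0175. Each was called in only 1 of 16 other settings, this one, and in 0 of 12 fits that left out 1 array. With the replicate number as a block the adjusted p was 0.168 for Il12b and 0.214 for Il6. Since both controls of these genes were at or below background, the difference depends on readings that are only bounds. By replicate number it was -3.46, -4.60 and -3.80 for Il12b and -5.83, -4.09 and -2.27 for Il6, negative in each pair. Il12a (-1.75, SE 0.995) and Il23a (-1.63, SE 0.906) also had negative differences in every pair and did not pass, with adjusted p = 1.00 for each. Il27 gave -0.11 (SE 1.43) and Ebi3 0.22 (SE 0.362). Whether Il6 and Il12b differ in this from Il12a and Il23a was not tested.

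The regulators known to act on these genes were read from a list of 15 transcription factors. With apoA-I, 2 of the 15 passed as higher in MyD88-null cells and 3 in C57BL/6 cells, or 5 and 6 with the replicate number as a block, a fit in which 3.15% of all genes passed as higher in MyD88-null cells and 2.32% in C57BL/6 cells. As lower, 0 of the 15 passed in limma, and with the block Atf3 (-1.21, adjusted p = 0.0224) and Irf8 (-1.18, adjusted p = 0.0411) passed in MyD88-null cells and Jun (-1.76, adjusted p = 0.0250) in C57BL/6 cells, beside 0.753% and 1.25% of all genes. Nfkbiz encodes IkappaB-zeta, a nuclear protein known in mouse macrophages as needed for Il6 and Il12b to be induced. It read 1.44, 2.33 and 1.84 in apoA-I-treated MyD88-null cells and -2.86, -1.99 and -2.60 in MyD88-null controls, against 5.63, 5.03 and 4.35 in apoA-I-treated C57BL/6 cells and 1.61, 0.68 and 0.81 in C57BL/6 controls. It rose with apoA-I in both genotypes, by 4.36 in MyD88-null (SE 0.402, adjusted p = 0.000388) and 3.97 in C57BL/6 cells (adjusted p = 0.00116), and was lower in MyD88-null cells both with apoA-I (-3.14, adjusted p = 0.0213) and in controls (-3.52, adjusted p = 0.0107). It was the only factor of the 15 to pass between the genotypes, with or without the replicate block, and its level in apoA-I-treated MyD88-null cells overlapped that in C57BL/6 controls.

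Irf1, an interferon regulatory factor known to act on Il12a and Il12b, rose by 3.54 in MyD88-null cells (SE 0.291, adjusted p = 0.000224) and by 2.19 in C57BL/6 cells (adjusted p = 0.00528). It did not differ past the threshold between genotypes with apoA-I (0.53, adjusted p = 0.999). Rel, the NF-kappaB subunit c-Rel, was not well above background on any MyD88-null array, where the adjusted p was 0.116, or 0.0487 with the block, and passed as higher in C57BL/6 cells (adjusted p = 0.0298). Its probe was well above background on all 3 C57BL/6 arrays with apoA-I and on 1 of the C57BL/6 controls. Rel thus passed the filter only through the group where it is high, so its call as higher is not independent of the filter and rests on dim controls. Among 3 genes that act on the stability of such messages, none passed without the replicate block and 2 passed as higher in each genotype with it: Zc3h12a, whose product regnase-1 cuts Il6 and Il12b messages, by 1.72 in MyD88-null and 2.34 in C57BL/6 cells, and Zfp36, which encodes tristetraprolin, by 1.48 in MyD88-null and 1.61 in C57BL/6 cells. With that block Zc3h12a was also lower in apoA-I-treated MyD88-null cells (-2.46, adjusted p = 0.0318, or 0.952 without the block).

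**Figure D4:**
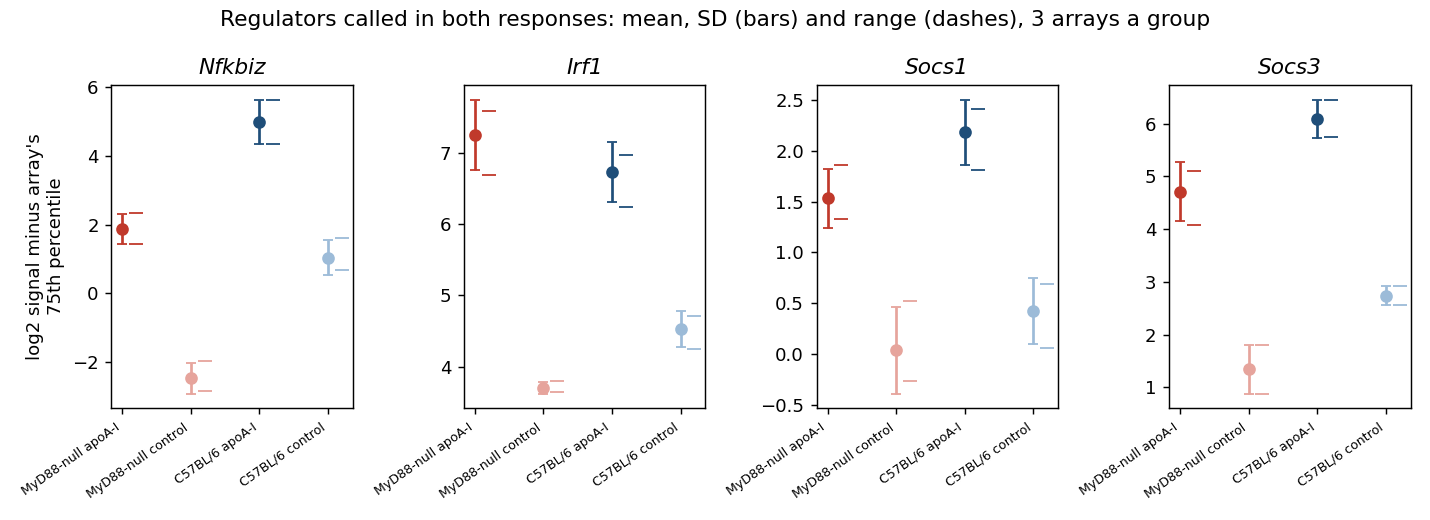
Levels (y axes, log2 signal minus the array's 75th percentile) of the transcription factors Nfkbiz and Irf1 and the feedback inhibitors Socs1 and Socs3, the listed regulators that passed in both responses to apoA-I, in the 4 groups. Points are means with the SD of 3 arrays, and short dashes mark the lowest and highest array.

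Downstream, 8 genes of the JAK-STAT pathway, which carries the signal of all these cytokines, were tested. In MyD88-null cells 2 passed as higher with apoA-I and in C57BL/6 cells 3, or 3 and 3 with the replicate block. Socs3, the feedback inhibitor of gp130 signalling, rose by 3.37 in MyD88-null (SE 0.334, adjusted p = 0.000604) and 3.35 in C57BL/6 cells (adjusted p = 0.00116), and its level was lower in MyD88-null cells by -1.38 with apoA-I (adjusted p = 0.681, or 0.0452 with the block) and -1.40 in controls (adjusted p = 0.376, or 0.0225 with the block, where 0.526% of all genes passed as lower). Socs1, which restrains JAK kinases, rose by 1.50 in MyD88-null (adjusted p = 0.0390) and 1.76 in C57BL/6 cells (adjusted p = 0.0210). Jak2, a kinase of the interleukin-12 and interleukin-23 receptors, gave 1.40 in MyD88-null cells (adjusted p = 0.115, or 0.00942 with the block) and rose by 1.91 in C57BL/6 cells (adjusted p = 0.0327).

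Of 6 other interleukin-6 family cytokines 5 were on the array, and 0 passed in limma in either response (0 with an unadjusted p under 0.05 in MyD88-null cells, 2 in C57BL/6 cells). With the replicate block 1 passed as higher in MyD88-null cells and 2 in C57BL/6 cells. Osm, oncostatin M, gave 0.36 in MyD88-null cells (adjusted p = 0.888, or 0.240 with the block) and 1.78 in C57BL/6 cells (adjusted p = 0.454, or 0.00148 with the block), and with that block it was lower in apoA-I-treated MyD88-null than in apoA-I-treated C57BL/6 cells (-1.38, adjusted p = 0.0252). Clcf1, cardiotrophin-like cytokine, gave 1.16 in MyD88-null cells (adjusted p = 0.617, or 0.0269) and 2.13 in C57BL/6 cells (adjusted p = 0.198, or 0.00192). Of 6 receptor genes 4 were tested and 0 passed in limma in any comparison, with or without the block, or had an unadjusted p under 0.05. Il6st, which encodes gp130, gave -0.0078 in MyD88-null and 0.0037 in C57BL/6 cells (SE 0.169). Among 12 genes of the Toll-like receptor pathway, 1 passed in MyD88-null cells: Tlr2, a receptor for bacterial lipoproteins, rose by 3.60 (adjusted p = 0.000773), and it gave 1.58 in C57BL/6 cells (adjusted p = 0.127, or 0.0149 with the block). The level of Tlr2 differed between the genotypes by -2.43 in controls (adjusted p = 0.0556, or 0.00539 with the block) and by -0.41 with apoA-I (adjusted p = 0.999), and the difference of the responses did not pass (2.02, adjusted p = 1.00, or 0.303 with the block). With the block Myd88 also passed as higher in MyD88-null cells and Cd14 in C57BL/6 cells.

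Markers of other cells that a peritoneal wash can hold were summed on the linear scale of signal over the array's 75th percentile. None of the 31 markers tested of macrophages and other cells passed in limma in any comparison, and between 0 and 4 had an unadjusted p under 0.05. With the replicate block 1 passed in each response, Cd14 in C57BL/6 cells and the dendritic cell marker Zbtb46 in MyD88-null cells (2.16, SE 0.759, adjusted p = 0.386, or 0.0255 with the block). The summed level of the B cell markers was 3.81 to 6.94 in apoA-I-treated MyD88-null cells and 4.21 to 4.96 in MyD88-null controls, against 7.18 to 7.87 in apoA-I-treated C57BL/6 cells and 7.09 to 8.44 in C57BL/6 controls. That of the mast cell markers was 0.691 to 1.27 and 0.710 to 1.29 in apoA-I-treated MyD88-null cells and in MyD88-null controls, against 1.48 to 1.86 and 1.46 to 1.85 in apoA-I-treated C57BL/6 cells and in C57BL/6 controls. Both sums moved with the genotype, without overlap, and their part in the differences of Il6 and Il12b was not tested. The sums of the dendritic cell markers overlapped across groups, at 1.09 to 3.32 in apoA-I-treated MyD88-null cells and 0.658 to 2.21 in MyD88-null controls, against 1.29 to 2.91 in apoA-I-treated C57BL/6 cells and 0.893 to 2.96 in C57BL/6 controls. The level of Zbtb46 itself was -1.76 to -0.32 in apoA-I-treated MyD88-null cells and -4.70 to -1.57 in MyD88-null controls, and its part in the responses of the members was not tested. In such bulk samples fewer cells of a type and less RNA per cell cannot be told apart.

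Over the 12 arrays the levels of Il6 and Il12b followed each other most closely (Pearson r = 0.988), and those of Il12a and Il23a correlated with both, and with each other, at 0.917 to 0.936. Il27 and Ebi3 correlated with the others, and with each other, at 0.323 to 0.574. These values describe arrays that share groups, slides and scaling. Of all genes tested, the 3 most like Il6 were Il12b, Edn1 (0.979) and Il1a (0.979), and the 3 most like Il12b were Csf2 (0.989), Il6 and Edn1 (0.985). Csf2 was also the nearest to Il12a (0.956), before Etv6 (0.947) and Shisa3 (0.944). Edn1, Il1a and Csf2 were lower in apoA-I-treated MyD88-null cells, by log2 differences of -3.50, -3.62 and -3.52 (adjusted p = 0.00219, 0.00219 and 0.0213). They were picked by their correlation with members over these same arrays. Their differences therefore largely follow from that choice and are no separate evidence. For Il23a the nearest were Exoc3l4 (0.979), Nfkbib (0.975) and BB657751 (0.975), for Il27 1700016K19Rik (0.983), Hes2 (0.977) and Creb3l1 (0.976), and for Ebi3 Slpi (0.953), Pilrb1 (0.936) and Cfb (0.934).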

How the data were processed

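RNA (500 ng per sample) was measured on 12 one-colour Agilent arrays. The deposited processed intensity is background-corrected Cy3 signal, per the file headers, made with Agilent Feature Extraction 9.5 per the submitters' processing notes (the headers name 9.5.1.1 and 9.5.3.1) and not scaled between arrays; mean spot and background intensity are raw. A further deposited file of processed values follows the log10 processed intensity of each array (r 0.993 to 1.00 across spots; column medians 1.82 to 1.87). Its log10 scale was read from that match, the sources used here do not state how it was normalized, and its centring stays unknown; it served as an alternative.

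From the 43379 non-control spots of each array (45018 in all), outlier spots were left out and saturated ones kept (at most 6 probes an array). Spots of a probe were averaged as log2 of intensity minus the array's 75th percentile. A probe stayed in if every array of 1 or more groups had it well above background (24350 probes), and the probe with the highest mean stood for a gene (16742 genes). Probe names came from the files, updated through RefSeq gene and accession tables of GRCm38.p6, used for names and promoter windows only: 22951 probes matched by accession, 131 by another accession, 6582 by symbol and 3073 by synonym, and 8437 kept the name in the file. Probe coordinates are those of the files, in mm7. All 6 members passed the filter, but Il6, Il12b and Il23a did so only through the groups with apoA-I, where they are high. Their calls as higher with apoA-I are therefore not independent of the filter. With no filter on dim probes these 3 were still called in both responses. One limma model (3.58.1, R 4.3.3) with a mean per group was fitted, with 8 residual and 2.13 prior degrees of freedom; p-values are two-sided and adjusted by Benjamini-Hochberg. SE is the standard error of a log2 change, SD the spread over arrays, intervals are 95%. The fit was tested on simulated data with independent noise on each array. Those data held no shared effect of replicate number, slide or scan day, so that test does not cover such effects.

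Groups came from titles. Replicate numbers were taken as pairs, since all 18 pairs of same-numbered arrays of different groups deviated together from their group means (r 0.296 to 0.859, median 0.611). The 36 pairs of other numbers had a median of -0.399 and ran from -0.812 to 0.547, so the ranges overlapped. Deviations from a group mean cancel within the group, so the values for same and other numbers are not independent. The design text also describes experiments of 1 sample of each group. The model without a replicate term was kept as the main one, and the model with the replicate block served as an alternative. The model with the replicate block passed 528 higher and 126 lower genes in the MyD88-null response, against 181 and 4 without it, and 388 and 210 in the C57BL/6 response, against 132 and 6. Between genotypes it passed 7 higher and 30 lower with apoA-I, against 3 and 8, and 12 higher and 88 lower in controls, against 3 and 10. Slides and scan days held several groups and were run as blocks.

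The members, gene lists, tests and the named genes (6 members, the listed genes, and the 3 genes most correlated with each member) were chosen with earlier results of these data known. Alternatives were the background correction, scaling, filter, probe choice, blocks, leaving out arrays and the treatment given in the descriptions. Keeping outlier spots and leaving out the 4 arrays numbered 3 were added after seeing the data.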

Additional observations from a re-analysis of the deposited data

How the results depend on the processing

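The number of members called changed as follows. With normexp background correction, which adds 50 to each signal, 0 were called in the MyD88-null response and 2, Il6 and Il12b, in the C57BL/6 response. Among the 3 members above background on all 12 arrays the counts were 0 in the MyD88-null response, 1 in the C57BL/6 response and 0 between genotypes with apoA-I, because Il6, Il12b and Il23a were not tested. With the treatment taken from the descriptions they were 0, 0 and 0, where 0 of all 16742 genes passed in either response. Il12a alone lost its call in the C57BL/6 response, leaving 3 members, with no filter on dim probes, with only the groups compared, without both samples of conflicting description and without the 4 arrays numbered 3, and it gained one in the MyD88-null response with slide as a random block. Without the 4 arrays numbered 3, 1 member, Il6, was called between genotypes with apoA-I. With slide as a random block 2 were called in the difference of the responses, Il12b at -4.24 and Il6 at -4.39. With the replicate block the only change among the members was the call of Il23a between genotypes with apoA-I (adjusted p = 0.0412). Values that changed sign were all of results that were not called. Under the descriptions these were Il27 in the MyD88-null response (-0.26) and, between controls, Il12b (0.11), Il23a (1.43) and Il27 (0.56). Without both samples of conflicting description Il23a (0.11) and Il27 (0.12) turned between controls. Without the arrays numbered 3 Il12a turned between controls (0.058) and Il27 in the difference of the responses (0.23), and with median centring Ebi3 turned in that difference (-0.15). Leaving out 1 array at a time, the log2 changes ran for Il27 from -0.14 to 1.46 in the C57BL/6 response, from -1.20 to 0.15 between genotypes with apoA-I and from -1.42 to 0.24 between controls, for Il12a from -1.13 to 0.043 and for Il23a from -0.82 to 0.11 between controls, and in the difference of the responses from -0.81 to 0.85 for Il27 and from -0.024 to 0.38 for Ebi3. Causes beyond those stated were not tested. The calls of Il6 and Il12b in both responses and between genotypes with apoA-I held in all 12 fits that left out 1 array. Signals at background in the controls limit the folds of Il6, Il12b and Il23a to bounds.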
